A study of Mus musculus with 5 samples.

Results

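Cholesterol synthesis and uptake were followed through 8 genes in sorted intestinal epithelial cells of fasted and refed mice. The genes were listed with earlier results of these data known and found in the expression table by symbol, where they are 8 of 22042 genes, each present once. They comprise 5 enzymes of cholesterol synthesis (Hmgcs1, Idi1, Fdft1, Sqle and Lss), 2 regulators of the pathway (Srebf2 and Insig1) and 1 transporter that takes up cholesterol from the gut lumen (Npc1l1).

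Cells make cholesterol from acetyl-CoA through the mevalonate pathway, which leads by way of isoprenoid diphosphates to squalene and then to the sterols. The transcription factor SREBP2, encoded by Srebf2, switches on the genes of this pathway when sterols in the endoplasmic reticulum are low. INSIG proteins hold SREBP2 with its escort SCAP in that membrane when sterols are plentiful. In the small intestine, absorptive enterocytes obtain cholesterol both by synthesis and by uptake across the brush border, where NPC1L1 brings sterols in and the ABCG5/ABCG8 pair pumps them back out.

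The cells came from C57Bl/6J mice aged 6 to 8 weeks that carried Cck-Cre with the Cre-dependent reporter R26-LSL-tdTomato. Mice A, B and F had been fasted overnight. Mice C, D and E were given the liquid diet Ensure after a fast, and the lengths of their fast and of refeeding are not given in the labels. Epithelial cells of the small intestine were sorted by the reporter, and from every mouse 1 library was made of positive cells, called CCK+, and 1 of negative cells, called CCK-, so that 4 groups of 3 libraries were compared. The reporter marks every cell in which Cck-Cre was ever active, which includes neurons of the gut wall.

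The libraries held about 6700000 to 10800000 reads, estimated from the value of 1 read in each. Values are normalized counts on the authors' scale, and all fold changes are given on log2(normalized count + 1). Cck itself lay between 14837 and 32592 normalized counts in the CCK+ libraries and between 27.6 and 86.0 in the CCK- libraries. All 10 enteroendocrine markers were higher in CCK+ cells by limma at adjusted p under 0.05. Their sums had means of 153957 normalized counts in fasted and 264503 in refed CCK+ libraries. CCK+ libraries also held markers of absorptive enterocytes, 10 of which had mean sums of 303706 in fasted and 203672 in refed libraries. In CCK- libraries the enterocyte means were 523335 and 482319. Of the 4 markers of enteric neurons, 2 were called higher in CCK+ cells, Snap25 and Elavl4. Snap25, which enteroendocrine cells express as well, lay between 908.8 and 3133 normalized counts in CCK+ and between 23.7 and 48.7 in CCK- libraries. Elavl4 reached at most 4.42 and was at 0 in all CCK- libraries, and Uchl1 reached 29.9 in CCK+ and 27.3 in CCK- cells, both in fasted mouse F. The share of neurons was not tested.

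Promoter windows of the members are shown first, because SREBP2 acts through such regions. RefSeq windows of 300 bases, from 250 before to 50 after the start of the gene, were matched by symbol for 6 of the 8 members, in build GRCm38.p6. Sqle and Fdft1 had no entry. Both strands were searched for 3 motifs: TCACNCCAC, a core of the sterol regulatory element that SREBPs bind, CCAAT, the box of NF-Y, and GGGCGG, the GC box of Sp1-type factors. NF-Y and Sp1 are known partners of SREBPs at sterol-regulated promoters. The sterol element core was found in the window of Hmgcs1, as TCACCCCAC beginning 137 bases before the start, and in none of the other 5 windows, against 1.24% of the 32851 windows in the table. CCAAT was found in all 6 windows, against 37.4% of the table, and GGGCGG in 5 of 6, against 35.7%, with Npc1l1 lacking it.

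Shown here are Hmgcs1, the member with the sterol element core, Idi1 and Insig1, with large differences between refed and fasted libraries, and Npc1l1, the member whose values lay the other way. The Hmgcs1 window is chr13:119690101-119690400 and the Idi1 window chr13:8885356-8885655, both on the plus strand. The Insig1 window is chr5:28071162-28071461 on the plus strand, and the Npc1l1 window is chr11:6230196-6230495 on the minus strand. Capitals mark the sterol element core and each CCAAT, which reads ATTGG where it lies on the opposite strand; the GC boxes are left in lower case. The sterol element core overlapped neither other motif.
Hmgcs1: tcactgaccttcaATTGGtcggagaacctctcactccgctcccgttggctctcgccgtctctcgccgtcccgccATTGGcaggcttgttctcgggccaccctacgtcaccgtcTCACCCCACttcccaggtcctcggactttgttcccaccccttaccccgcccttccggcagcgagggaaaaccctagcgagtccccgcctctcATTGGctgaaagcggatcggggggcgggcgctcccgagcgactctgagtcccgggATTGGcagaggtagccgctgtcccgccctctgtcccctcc
Idi1: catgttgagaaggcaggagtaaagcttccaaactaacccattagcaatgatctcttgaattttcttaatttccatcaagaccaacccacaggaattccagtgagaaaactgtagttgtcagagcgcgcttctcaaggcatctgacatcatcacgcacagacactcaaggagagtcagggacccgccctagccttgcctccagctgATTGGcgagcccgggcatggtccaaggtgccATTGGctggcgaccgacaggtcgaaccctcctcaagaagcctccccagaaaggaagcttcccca
Insig1: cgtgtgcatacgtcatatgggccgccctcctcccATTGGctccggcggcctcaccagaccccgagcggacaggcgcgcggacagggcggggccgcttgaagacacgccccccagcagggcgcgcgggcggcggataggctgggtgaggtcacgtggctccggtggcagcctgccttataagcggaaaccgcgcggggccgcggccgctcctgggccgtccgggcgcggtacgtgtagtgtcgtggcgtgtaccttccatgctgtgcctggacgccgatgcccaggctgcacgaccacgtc
Npc1l1: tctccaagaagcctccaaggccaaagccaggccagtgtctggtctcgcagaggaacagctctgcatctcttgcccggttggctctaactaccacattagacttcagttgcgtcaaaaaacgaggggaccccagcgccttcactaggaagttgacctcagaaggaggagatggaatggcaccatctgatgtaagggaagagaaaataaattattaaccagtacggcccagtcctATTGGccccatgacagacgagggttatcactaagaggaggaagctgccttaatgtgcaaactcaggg
The Hmgcs1 window held 4 CCAAT boxes and 3 GC boxes, the Idi1 window 2 and 1, the Insig1 window 1 and 3, and the Npc1l1 window 1 and 0. A match of these letters is a description of the window and not evidence that a factor binds there. Only these exact letters were searched, so a window without a match is not evidence that a sterol element is absent. In the whole list of cholesterol synthesis genes, 16 of the 18 genes with a window held CCAAT, 16 of 18 held GGGCGG and 1 of 18, Hmgcs1, held the sterol element core.

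Refeeding was first examined in the synthesis enzymes, in the order of the pathway. Hmgcs1 (ENSMUSG00000093930) encodes the HMG-CoA synthase of the cytosol, an early enzyme of the mevalonate pathway. In CCK+ cells it stood at 734, 573 and 479 normalized counts in fasted mice A, B and F and at 1173, 1713 and 1367 in refed mice C, D and E. In CCK- cells the values were 514, 290 and 244 in fasted mice and 801, 1147 and 786 in refed mice. Every refed library lay above every fasted library of its population. In sorted bulk libraries, fewer or more cells of a type and less or more RNA per cell cannot be told apart. The refed level was 2.39-fold the fasted level in CCK+ cells (95% interval 1.62 to 3.53, limma adjusted p = 0.0222) and 2.70-fold in CCK- cells (1.83 to 3.99, adjusted p = 0.0183).

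Idi1 (ENSMUSG00000058258), the isomerase that interconverts the isoprenoid building blocks isopentenyl and dimethylallyl diphosphate, gave 177, 147 and 110.5 normalized counts in fasted CCK+ cells and 481, 454 and 470 in refed CCK+ cells. The refed libraries were close to each other (468 ± 14.0, SD, n = 3). In CCK- cells Idi1 was at 160, 125 and 164 in fasted mice and at 486, 535 and 243 in refed mice, where mouse E was well below the others but above all fasted mice. The rise was 3.28-fold in CCK+ cells (2.21 to 4.88, limma adjusted p = 0.00553) and 2.67-fold in CCK- cells (1.80 to 3.97, adjusted p = 0.0208).

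Fdft1 (ENSMUSG00000021273) encodes squalene synthase, the first enzyme committed to sterols. Its values in CCK+ cells were 340, 244 and 276 in fasted mice and 830, 840 and 570 in refed mice. In CCK- cells they were 178, 201 and 131 in fasted mice and 587, 484 and 283 in refed mice. Mouse E was the lowest refed mouse in both populations, still above all fasted mice. Fdft1 rose 2.58-fold in CCK+ cells (1.75 to 3.82, limma adjusted p = 0.0156) and 2.57-fold in CCK- cells (1.74 to 3.81, adjusted p = 0.0235).

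Sqle (ENSMUSG00000022351) encodes squalene epoxidase, an oxygen-dependent and rate-controlling enzyme of the sterol branch. In CCK+ cells it was at 513, 358 and 352 normalized counts in fasted mice and at 966, 1471 and 946 in refed mice. In CCK- cells it was at 101, 139 and 88.5 in fasted mice and at 533, 475 and 338 in refed mice. The groups did not overlap in either population. Sqle rose 2.75-fold in CCK+ cells (1.91 to 3.94, limma adjusted p = 0.00739) and 4.07-fold in CCK- cells (2.84 to 5.84, adjusted p = 0.000783).

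Lss (ENSMUSG00000033105) encodes lanosterol synthase, which closes the sterol rings. Fasted CCK+ libraries had 159, 167 and 94.0 normalized counts and refed ones 297, 341 and 350. Fasted CCK- libraries had 133, 166 and 93.3 and refed ones 323, 278 and 329. The CCK+ and CCK- values overlapped within each feeding state, and the refed and fasted values did not overlap. The rise was 2.41-fold in CCK+ cells (1.67 to 3.48, limma adjusted p = 0.0165) and 2.42-fold in CCK- cells (1.67 to 3.49, adjusted p = 0.0237).

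**Figure D1:**
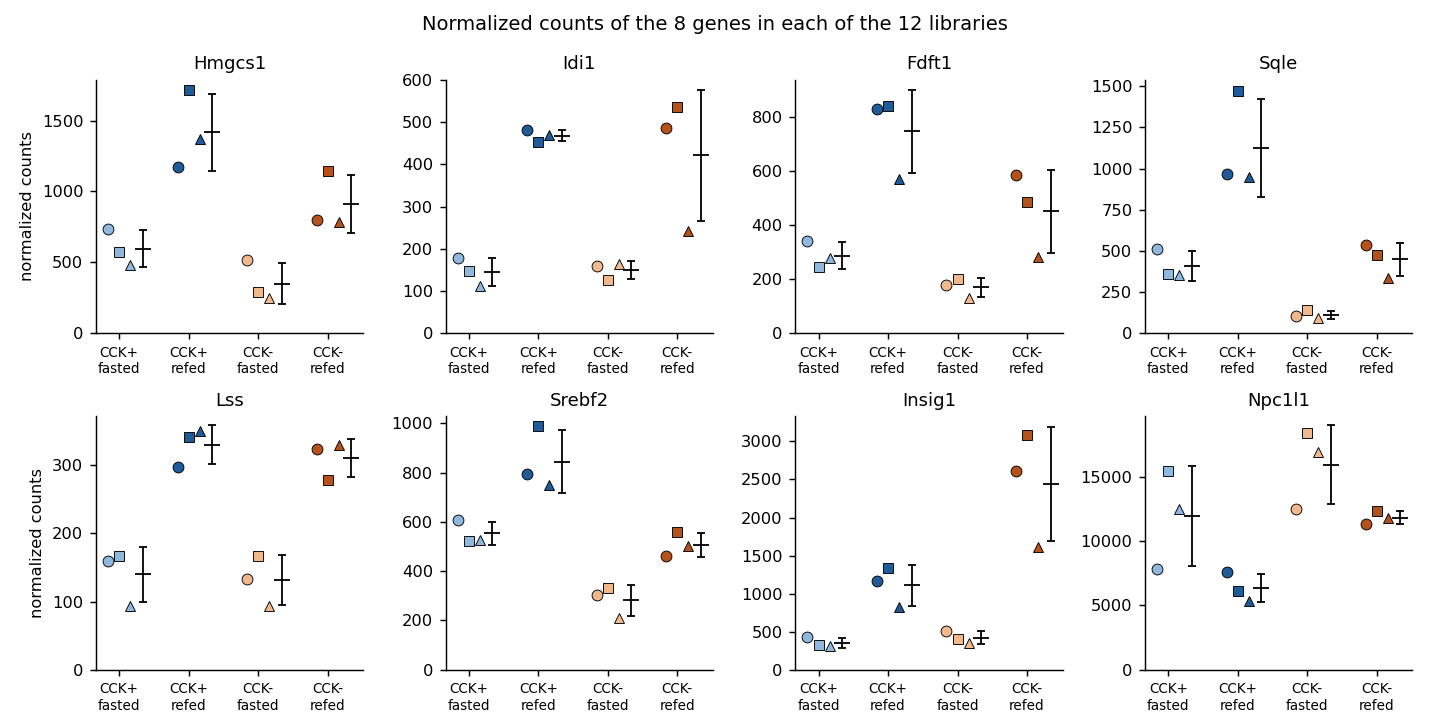
Normalized counts (y axes from 0) of the 8 genes in the 12 libraries, by population and feeding state. Symbols are single libraries (circles, squares and triangles for mice A, B and F among fasted and C, D and E among refed mice), and bars give the mean and SD of 3 libraries. In 7 genes all refed libraries lay above all fasted libraries of the same population, and in Npc1l1 they lay below.

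The regulators were examined next. Insig1 (ENSMUSG00000045294) was at 426, 321 and 315 normalized counts in fasted CCK+ cells and at 1165, 1342 and 820 in refed CCK+ cells. In CCK- cells it was at 512, 400 and 346 in fasted mice and at 2614, 3079 and 1616 in refed mice. Insig1 rose 3.10-fold in CCK+ cells (2.14 to 4.48, limma adjusted p = 0.00519), where the rise of Idi1 was larger. In CCK- cells Insig1 rose 5.67-fold (3.92 to 8.21, limma adjusted p = 0.000193), the largest rise among the 8 genes there. Every refed library lay above every fasted library in both populations. Insig1, which encodes one of the INSIG proteins, is itself a well-known SREBP target gene.

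Srebf2 (ENSMUSG00000022463) encodes SREBP2, the activator of the pathway. In CCK+ cells it stood at 607, 524 and 528 normalized counts in fasted mice and at 795, 989 and 748 in refed mice. In CCK- cells it stood at 302, 332 and 210 in fasted mice and at 462, 559 and 503 in refed mice. The groups did not overlap in either population, but the differences were smaller than those of the enzymes. Srebf2 rose 1.83-fold in CCK- cells (1.39 to 2.41, limma adjusted p = 0.0356), while the 1.52-fold higher level in refed CCK+ cells did not pass the test (1.15 to 2.00, adjusted p = 0.109).

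Npc1l1 (ENSMUSG00000020447), the sterol importer of the brush border and the target of ezetimibe, lay the other way. Its values in CCK+ cells were 7814, 15472 and 12505 normalized counts in fasted mice and 7577, 6098 and 5372 in refed mice. In CCK- cells they were 12489, 18401 and 16880 in fasted mice and 11344, 12345 and 11765 in refed mice. Mouse A, with the lowest fasted value in both populations, lay just above the refed mice, so that the groups did not overlap. Neither difference passed the test. The refed level was 0.548 of the fasted level in CCK+ cells (0.383 to 0.783, limma adjusted p = 0.0778) and 0.752 in CCK- cells (0.526 to 1.075, adjusted p = 0.5565).

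In all, 6 of the 8 members were called higher in refed than in fasted CCK+ cells at adjusted p under 0.05, against 1.31% of the 22042 genes, and 0 were called lower, against 1.23%. In CCK- cells 7 of 8 were called higher, against 0.708% of all genes, and 0 were called lower, against 0.526%. Among the 7623 genes with a mean of at least 100 normalized counts, as all members have, 2.86% were called higher and 3.16% lower in CCK+ cells, and 1.69% higher and 1.27% lower in CCK- cells. The same 6 genes (Hmgcs1, Idi1, Fdft1, Sqle, Lss and Insig1) were called in both populations. All refed libraries lay above all fasted libraries for 7 of 8 members in CCK+ cells, against 10.8% of all genes, and for 7 of 8 in CCK- cells, against 8.05%. They lay below for 1 of 8 in each population, against 8.61% of all genes in CCK+ cells and 8.18% in CCK- cells. The median log2 fold change of the 8 members was 1.32 in CCK+ cells and 1.39 in CCK- cells, against 0.01 and 0 over all genes.

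The calls depended on single libraries. Leaving out the CCK+ library of refed mouse D left 0 of the 8 members called in CCK+ cells. The count there was 3 without the CCK+ library of mouse B or of mouse F, 4 without that of mouse C or of mouse E, 7 without that of mouse A, 5 without the CCK- library of mouse C, and 6 without any other CCK- library. In CCK- cells it was 2 without the CCK+ library of mouse A, C, D or E or the CCK- library of mouse F, C or D. It was 3 without the CCK- library of mouse A or B, 4 without that of mouse E, 5 without the CCK+ library of mouse F and 6 without that of mouse B. Fits on the 6 libraries of a single population called 0 members in either, and fits without the mean-variance trend called 2 in each, where 65.5% of the genes called in CCK+ cells were higher, against 51.5%. No direction of a member changed in any of these fits. The median log2 fold change of the 8 members was 1.25 in CCK+ cells without the CCK+ library of mouse D, against 1.32 with all libraries. With 1 library left out it lay between 1.23 and 1.46 in CCK+ cells and between 1.201 and 1.598 in CCK- cells. In the 12 fits that left out a library, Sqle and Insig1 were called in all 12 in CCK- cells, Hmgcs1, Idi1 and Lss in 3 each, Fdft1 in 2 and Srebf2 in 0. In CCK+ cells Idi1 and Insig1 were called in 11, Sqle in 10, Lss in 9, Fdft1 in 8, Hmgcs1 in 6, Npc1l1 in 1 and Srebf2 in 0.

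**Figure D2:**
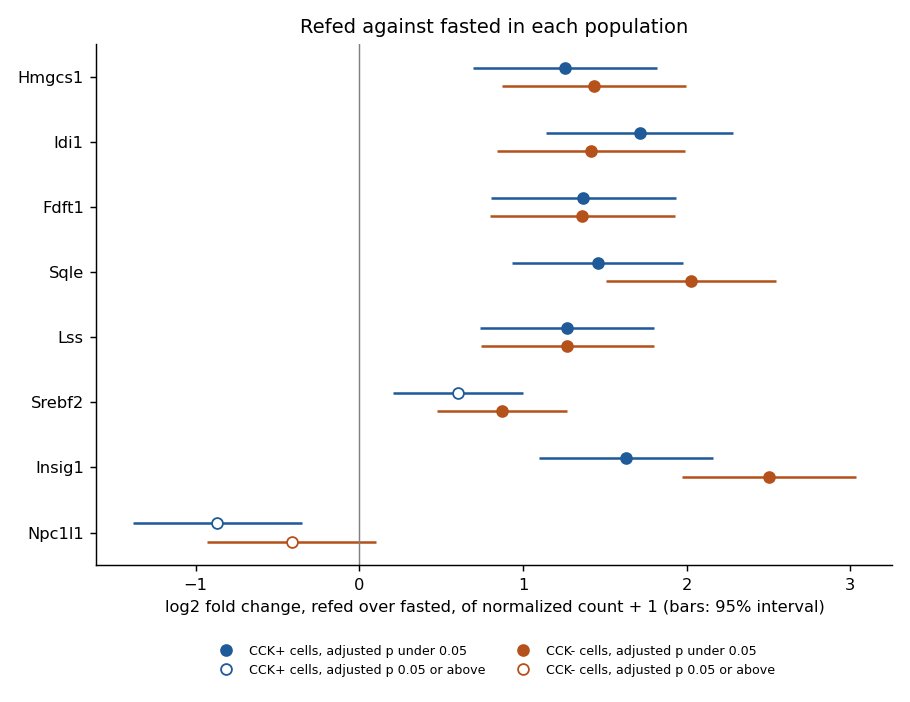
Log2 fold change of refed over fasted (x axis) for each of the 8 genes in CCK+ and CCK- cells, with 95% intervals from limma on 12 libraries; filled points passed adjusted p under 0.05. Intervals of 7 genes lie above 0 in both populations, and the Npc1l1 interval lies below 0 in CCK+ cells and includes 0 in CCK- cells.

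Whether refeeding acted differently in CCK+ and CCK- cells was tested as the difference between the 2 fold changes. None of the 8 members was called, against 0.00454% of all genes, which is 1 gene. That gene is Gvin1, chosen after its values were seen (-6.55, limma adjusted p = 0.000161). At an unadjusted p under 0.05, 1378 genes passed. Among the members, Insig1 had the largest difference, -0.87 on the log2 scale, with the smaller fold change in CCK+ cells (SE 0.352, unadjusted p = 0.0262, limma adjusted p = 0.761). For Sqle the difference was -0.57 (SE 0.344, adjusted p = 0.802), and for Npc1l1 it was -0.46 (SE 0.340, adjusted p = 0.824). For Lss and Fdft1 the differences were -0.00 and 0.01, with 95% intervals from -0.75 to 0.75 and from -0.79 to 0.81, so that a 1.68-fold larger effect in CCK+ cells for Lss and a 1.75-fold larger effect for Fdft1 lie at the ends of the intervals. Giving all libraries equal sums moved the median difference of all genes from 0.01 to 0.135, and no member was called then either.

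The levels of the 2 populations were then compared, with all 12 libraries and both feeding states. Of the 8 members, 4 were called higher in CCK+ cells, against 19.6% of all genes, and 2 were called lower, against 14.1%. All members have a mean of at least 100 normalized counts, and among the 7623 genes that do, 19.3% were called higher and 34.04% lower. Sqle was higher in CCK+ cells by 3.05-fold (2.36 to 3.93, limma adjusted p = 5.64e-06), and its CCK+ to CCK- ratio was above 1 in 6 of 6 mice, between 1.81 in mouse C and 5.08 in mouse A. Srebf2 was higher by 1.82-fold (1.496 to 2.21, adjusted p = 0.00013), Fdft1 by 1.70-fold (1.29 to 2.24, adjusted p = 0.00515) and Hmgcs1 by 1.66-fold (1.26 to 2.19, adjusted p = 0.00665), each in 6 of 6 mice.

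Insig1 was lower in CCK+ than in CCK- cells, at 0.626 of the CCK- level (0.482 to 0.812, limma adjusted p = 0.00774), and the ratio was below 1 in all 6 mice. The ratio was 0.831, 0.802 and 0.909 in fasted mice A, B and F and 0.446, 0.436 and 0.507 in refed mice C, D and E. Npc1l1 was at 0.624 of the CCK- level (0.484 to 0.803, adjusted p = 0.00597), with ratios from 0.457 in mouse E to 0.841 in mouse B. Idi1 and Lss did not pass the test, at 1.06-fold (0.801 to 1.403, adjusted p = 0.773) and 1.06-fold (0.820 to 1.38, adjusted p = 0.737). The Idi1 ratio was above 1 in 3 of 6 mice and ranged from 0.673 in mouse F to 1.93 in mouse E.

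The order of the 4 groups differed between genes. Sqle had its highest mean in refed CCK+ cells (1128 ± 298) and its lowest in fasted CCK- cells (109 ± 26.1), and refed CCK- cells (448 ± 100) and fasted CCK+ cells (408 ± 90.9) overlapped in between. Insig1 had its highest mean in refed CCK- cells (2436 ± 748), then in refed CCK+ cells (1109 ± 266), while fasted CCK- cells (419 ± 84.8) and fasted CCK+ cells (354 ± 62.4) overlapped. Srebf2 was highest in refed CCK+ cells (844 ± 128), fasted CCK+ cells (553 ± 47.0) overlapped with refed CCK- cells (508 ± 48.9), and fasted CCK- cells were lowest (281 ± 63.5; all SD, n = 3).

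**Figure D3:**
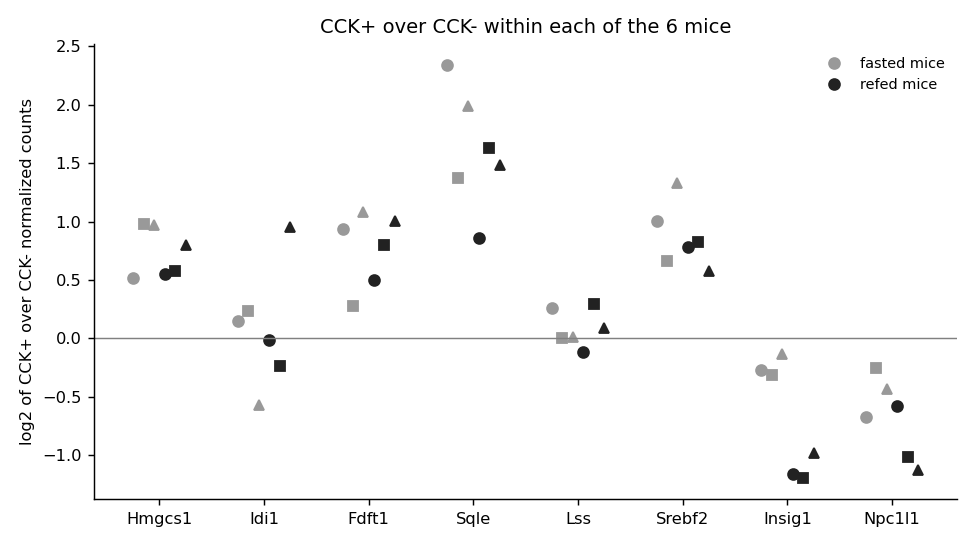
Log2 of the ratio of CCK+ to CCK- normalized counts (y axis) for each gene within each of the 6 mice; symbols as in the plot of counts by library, grey for fasted and black for refed mice. Sqle, Srebf2, Fdft1 and Hmgcs1 lie above 0 and Insig1 and Npc1l1 below 0 in all 6 mice, while Idi1 and Lss lie on both sides.

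The scaling of the libraries bears on these comparisons. Giving all libraries equal sums moved the median log2 fold change of all genes from 0.01 to 0.20 in refed against fasted CCK+ cells, and the share of called genes that were higher from 51.5% to 77.4%. In CCK+ against CCK- cells it moved the median from 0.09 to 0.35 and that share from 58.2% to 84.1%, while quantile normalization moved them to -0.14 and 41.6%. Insig1 and Npc1l1 were then no longer called between CCK+ and CCK- cells, under either of these scalings, while Sqle, Srebf2, Fdft1 and Hmgcs1 stayed higher in CCK+ cells under all 3 scalings tried. With fasted libraries alone 2 members were called, against 9.84% of all genes, and with refed libraries alone 3, against 25.4%. The refed changes of the members kept their direction under all 3 scalings, but not all calls were the same. In CCK- cells Srebf2 was called under 1 of the 3 and Lss under 2. In CCK+ cells Srebf2 was called under quantile normalization and Npc1l1 with equal upper quartiles, each under 1 of the 3.

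The pathway as a whole was described through a list of 23 cholesterol synthesis genes, of which 5 are the enzymes above, counted again here. Over all genes 1.31% were called higher and 1.23% lower in CCK+ cells, and 0.708% and 0.526% in CCK- cells, which are the shares to set beside the counts of every list below. In CCK+ cells 8 rose with refeeding, 0 fell and 15 did not pass, with a median log2 fold change of 0.91. In CCK- cells 8 rose, 0 fell and 15 did not pass, with a median of 0.58, and 7 of the 23 rose in both. Without the 5 enzymes, 3 of the other 18 genes rose in each population and 2 rose in both. The medians of these 18 were 0.69 in CCK+ and 0.45 in CCK- cells. Outside the members, Cyp51, the demethylase of lanosterol, rose in CCK+ cells from 350, 208 and 269 to 1167, 1361 and 759 normalized counts (3.94-fold, limma adjusted p = 0.00431). It rose 3.17-fold in CCK- cells (adjusted p = 0.0137). Fdps, the synthase of farnesyl diphosphate, rose 2.72-fold in CCK+ cells (adjusted p = 0.00774) and 3.04-fold in CCK- cells (adjusted p = 0.00499).

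Msmo1, a sterol methyl oxidase, rose 1.78-fold in CCK+ cells (adjusted p = 0.0373) and was 1.44-fold higher in refed CCK- cells without passing the test (adjusted p = 0.264). Mvd, the mevalonate diphosphate decarboxylase, rose 3.57-fold in CCK- cells (adjusted p = 0.0353), at values as low as 6.69 normalized counts, and was 2.15-fold higher in CCK+ cells (adjusted p = 0.162). With 1 library left out, Msmo1 was called in CCK+ cells in 1 of 12 fits, Mvd in CCK- cells in 3 of 12, Fdps in 11 of 12 in CCK+ cells and 12 of 12 in CCK- cells, and Cyp51 in 11 of 12 and 5 of 12.

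In the list of 18 genes of the SREBP pathway, 3 rose in CCK+ cells, 0 fell and 15 did not pass, and the counts were the same in CCK- cells. Insig1 was among them in both populations. The median log2 fold change of the 18 genes was -0.03 in CCK+ cells, where 8 were above 0, and 0.258 in CCK- cells, where 13 were. Srebf1, which encodes the relative of SREBP2 that favors fatty acid synthesis, differed by 1.124-fold in CCK+ cells (0.717 to 1.76, limma adjusted p = 0.831) and by 1.20-fold in CCK- cells (0.765 to 1.88, adjusted p = 0.840).

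The next list held 20 genes of cholesterol uptake, transport, efflux and esterification, Npc1l1 among them. In CCK+ cells 0 rose, 4 fell and 16 did not pass, and in CCK- cells 1 rose, 2 fell and 17 did not pass. Abca1, an exporter of cholesterol to apolipoproteins, was at 454, 553 and 839 normalized counts in fasted CCK+ cells and at 179, 117 and 118 in refed ones. It fell to 0.229 of the fasted level there (0.135 to 0.388, limma adjusted p = 0.00739) and to 0.291 in CCK- cells (0.172 to 0.495, adjusted p = 0.0276). Abcg8, a subunit of the sterol pump of the brush border, was at 1118, 1949 and 1320 in fasted and at 488, 362 and 453 in refed CCK+ cells, and fell to 0.303 of the fasted level (0.223 to 0.413, adjusted p = 0.00265). In CCK- cells Abcg8 fell to 0.415 (0.305 to 0.565, adjusted p = 0.00834).

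Abcg5, the partner subunit of Abcg8, fell to 0.448 of the fasted level in CCK+ cells (0.343 to 0.584, adjusted p = 0.00529) and was at 0.625 in CCK- cells without passing the test (0.479 to 0.816, adjusted p = 0.0934). Of the 10 enterocyte markers described below, 2 were also called lower in refed CCK+ cells, and their part in these falls was not tested. Abca1, Abcg5 and Abcg8 are known targets of the sterol-activated liver X receptors. The targets of these receptors were not examined as a set. Gramd1b, which carries cholesterol from the plasma membrane to the endoplasmic reticulum, fell to 0.573 of the fasted level in CCK+ cells (adjusted p = 0.0211) and was at 0.814 in CCK- cells (adjusted p = 0.529). Its relative Gramd1c rose 2.49-fold in CCK- cells (adjusted p = 0.01003) and was 1.55-fold higher in CCK+ cells (adjusted p = 0.158). In CCK+ cells Abcg5 and Abcg8 were called in 12 of 12 fits with 1 library left out, Abca1 in 8 and Gramd1b in 8. In CCK- cells Abcg8 was called in 9 of 12, Abca1 in 2 and Gramd1c in 9.

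Fatty acid synthesis, the pathway governed mainly by SREBP1, was described through 15 genes. In CCK+ cells 2 rose, 0 fell and 13 did not pass, with a median log2 fold change of 0.62, and in CCK- cells 4 rose, 0 fell and 11 did not pass, with a median of 0.36. Acly, which makes acetyl-CoA for both pathways, rose 2.05-fold in CCK+ cells (limma adjusted p = 0.0139) and 1.90-fold in CCK- cells (adjusted p = 0.0334). Scd2, a fatty acid desaturase, rose 3.43-fold in CCK+ cells (adjusted p = 0.0208) and 4.04-fold in CCK- cells (adjusted p = 0.0176), where its lowest library held about 7 reads of it. Fasn, the fatty acid synthase, was at 53.4, 108 and 104 normalized counts in fasted and at 242, 227 and 205 in refed CCK- cells, a rise of 2.64-fold (adjusted p = 0.0238). In CCK+ cells Fasn overlapped between the states, with 1.53-fold (1.02 to 2.30, adjusted p = 0.267), and Fads1, another desaturase, rose 2.55-fold in CCK- cells (adjusted p = 0.0190) and was 1.53-fold higher in CCK+ cells (adjusted p = 0.227). With 1 library left out, Acly was called in 9 of 12 fits in CCK+ cells and 1 of 12 in CCK- cells, Scd2 in 7 of 12 in each, and in CCK- cells Fasn in 1 of 12 and Fads1 in 5 of 12. Of the 8 genes of the non-sterol isoprenoid branch, 0 were called in either population, with medians of 0.05 and -0.01; by limma, 3736 genes in CCK+ cells and 2635 in CCK- cells had an unadjusted p under 0.05.

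**Figure D4:**
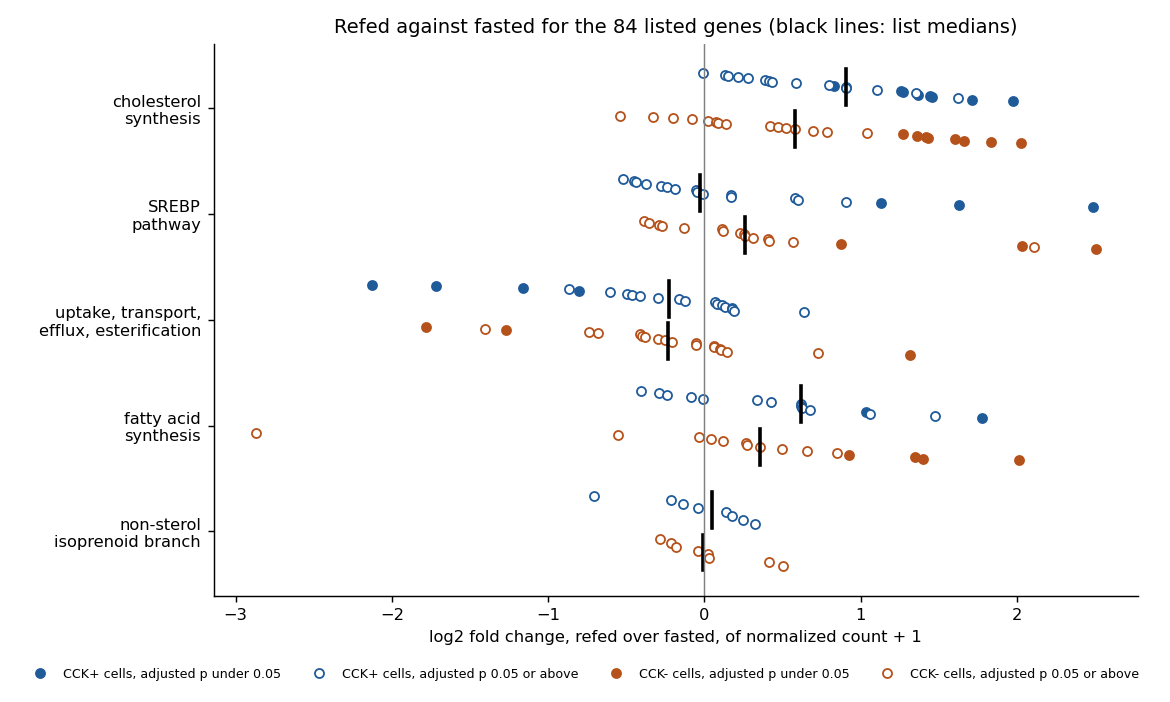
Log2 fold change of refed over fasted (x axis) of each of the 84 listed genes in CCK+ and CCK- cells; filled points passed adjusted p under 0.05 by limma, and black lines are list medians. The medians of the synthesis list, 0.91 and 0.58, lie to the right of 0, and those of the uptake, transport, efflux and esterification list, -0.23 in each population, to the left.

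The 15 genes most like the members were taken from 9654 genes with a mean of at least 50 normalized counts, by Pearson r over the 12 libraries after centring within CCK+ and within CCK- cells. The 12 libraries share 6 mice and 2 feeding states, and r is given as a description only. Among the 15 were Fdps (0.984), Scd2 (0.961) and Cyp51 (0.961), which are in the lists above. Outside the lists were Tlcd4 (0.984), Tspan13 (0.975), Rsl1d1 (0.973), Tpm4 (0.968), Abce1 (0.968), Dipk2a (0.960), Eif3a (0.959), Mrps2 (0.958), Mfsd2a (0.958), Ssbp1 (0.954) and Trmt61a (0.951). With the mean of all 8, the members themselves gave between 0.933 (Lss) and 0.988 (Insig1), except Npc1l1, which gave -0.721. Each member is part of that mean, which raises its r by construction, so these values cannot be compared with those of the 15 genes.

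Mice also differed within a feeding state. In refed CCK+ cells mouse D had the highest value in 5 of the 8 members and mouse E the lowest in 5. In refed CCK- cells mouse D was again highest in 5 and mouse E lowest in 5, and the CCK- library of mouse E was the shallowest, at about 6700000 reads. Among fasted mice, mouse F had the lowest value in 5 members in CCK+ cells and in 6 in CCK- cells. The fewest reads behind a value of a member were about 79 for Sqle and 84 for Lss, both in the CCK- library of mouse F.

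Sums of cell type markers also differed between feeding states. The 10 enteroendocrine markers, led by Chgb, summed to 209734, 94977 and 157159 normalized counts in fasted CCK+ libraries A, B and F and to 237778, 302588 and 253144 in refed libraries C, D and E. The groups did not overlap, mouse B was lowest, and none of the 10 was called with refeeding. Chgb carried this separation, since the other 9 summed to 86413, 40639 and 68031 in fasted and to 85310, 91463 and 65101 in refed CCK+ libraries, which overlapped. In CCK- cells the sums of all 10 were 2027, 1815 and 2123 in fasted and 1373, 2777 and 2435 in refed mice, which overlapped. The 7 crypt and cycling markers summed to 1597, 1693 and 3028 normalized counts in fasted CCK+ libraries and to 3064, 4041 and 4071 in refed ones. In CCK- cells the sums were 1043, 1063 and 1467 in fasted and 2311, 2713 and 2096 in refed mice. Mki67, the most abundant of these markers, rose 1.94-fold in CCK+ cells (limma adjusted p = 0.0344) and 2.10-fold in CCK- cells (adjusted p = 0.0321). Without Mki67 the sums in CCK+ cells overlapped, at 945, 1025 and 2001 in fasted and 1730, 2460 and 2518 in refed mice, and in CCK- cells they did not. Of the 7, 1 was called higher in CCK+ cells and 2 in CCK- cells. No marker of this list was at 0 in all libraries.

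The 10 markers of absorptive enterocytes, led by Apoa1, summed to 229902, 404213 and 277004 normalized counts in fasted and to 266738, 184716 and 159561 in refed CCK+ cells, and 2 of them (Slc5a1 and Lct) were called lower. Their sums were 475224, 645116 and 449665 in fasted and 514539, 477109 and 455309 in refed CCK- cells, where none of the 10 was called. Their median log2 fold change with refeeding was -0.46 in CCK+ and 0.04 in CCK- cells. Npc1l1 is an enterocyte gene, and 8 of these 10 markers were also lower in CCK+ than in CCK- cells. The 5 Paneth markers, led by Lyz1, varied from 1361 in fasted mouse B to 22619 in refed mouse D among CCK+ libraries. Of the 9 markers of lymphocytes and other immune cells, 8 were higher in CCK+ cells and none was called with refeeding. Cd74, the most abundant, was the exception, with means of 4281 in fasted and 2554 in refed CCK+ cells against 5208 and 4087 in CCK- cells. The part of these cell types in the differences of the 8 genes and of the other listed genes, such as the lower Abcg5 and Abcg8 of refed CCK+ cells, was not tested.

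**Figure D5:**
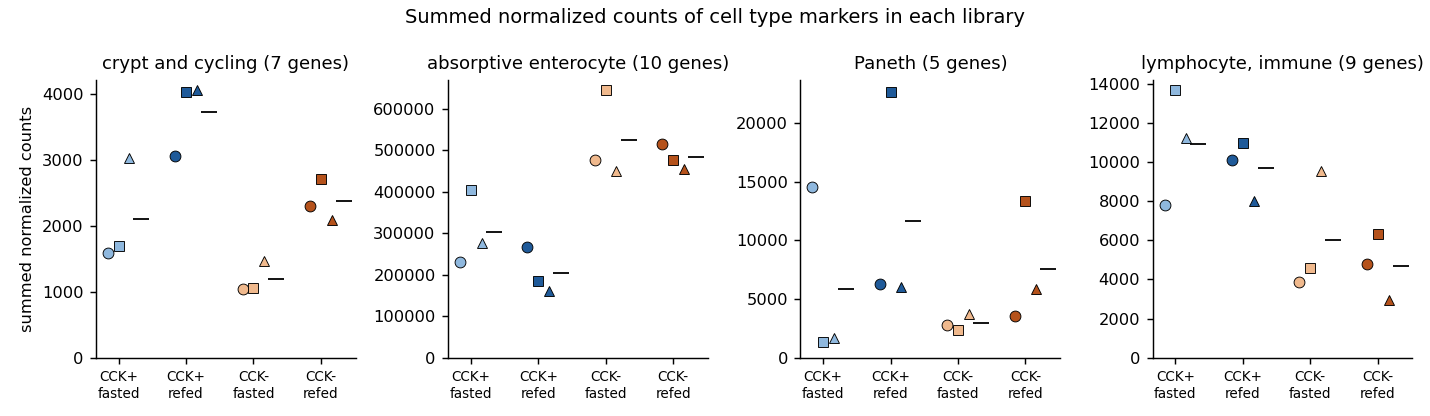
Summed normalized counts (y axes from 0) of 4 marker lists in the 12 libraries, with symbols as in the plot of counts by library and black lines for group means. Crypt and cycling sums are higher in all refed than in all fasted libraries of each population, absorptive enterocyte sums overlap between states, and Paneth sums are highest in refed mouse D.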

How the data were processed

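RNA was sequenced from sorted CCK+ and CCK- cells of 6 mice, in 12 libraries of about 6700000 to 10800000 reads. According to the authors, reads were trimmed with Trim Galore 0.6.7 and quantified with Salmon 1.6.0 on the GRCm39 transcriptome, and gene counts were normalized with DESeq2. The deposited values have the unit of a signal, normalized counts that are not whole, and are not reads; in each library the most common low value was taken as 1 read, but only 46.5 to 62.7% of values under 20 such steps were whole multiples of it within 0.01, so no count test was run. GEO titles name CCK+ cells for all 4 groups, so groups follow the cell type label, which the Cck values matched. Droplet data were not used.

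After adding 1 and taking log2, the values of all 22042 genes were fitted in R 4.3.3 by limma 3.58.1, using a separate mean per group, a mean-variance trend, 8 residual degrees of freedom and no filter on low values. P-values are two-sided with Benjamini-Hochberg adjustment over all genes, called at 0.05. The fit was also run on simulated data, and the outcome of that run is not given here. Descriptions used Python 3.11.15, numpy 2.4.6, pandas 2.3.3 and matplotlib 3.10.9. CCK+ and CCK- libraries of the same mouse were paired by its letter. Their deviations from the group means correlated at 0.077 to 0.124 for the same mouse and at -0.018 or lower for different mice. Subtracting the group means pushes the values for different mice below 0 when those for the same mouse are above 0. The 2 ranges are therefore not independent. The fit with the mouse as a block is given as an alternative.

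The members and lists were chosen with earlier results of these data known. Named genes were the 8 members, Srebf1 and Fasn, and of each list and population up to 6 others with the largest absolute log2 fold change among those called for refeeding; not every gene that this rule covers is printed. Genes of likeness were the 15 with the highest r. Promoter windows are from RefSeq, build GRCm38.p6; gene coordinates in the build of the data were not used here. Alternatives covered the pseudocount, a filter at a mean of 10, 3 scalings, the libraries in the fit, the trend, the block and each library left out.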

Additional observations from a re-analysis of the deposited data

How the results depend on the processing

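The refed against fasted differences of the 8 members kept their direction under every alternative run, 168 values in each population. Their calls did not. Fitting only the libraries compared gave 0 genes and 0 members in CCK+ cells and 63 genes and 0 members in CCK- cells. Without the mean-variance trend the counts were 119 genes and 2 members in CCK+ cells and 66 and 2 in CCK- cells, and quantile normalization gave 852 genes in CCK+ cells and 168 in CCK- cells. With 1 library left out, 103 to 876 genes and 0 to 7 members were called in CCK+ cells, 79 to 268 genes and 2 to 6 members in CCK- cells, and 6520 to 7618 genes and 6 members in CCK+ against CCK- cells. For the latter, fasted libraries alone gave 2169 genes and 2 members, refed libraries alone gave 5590 genes and 3 members, and equal sums and quantile normalization gave 4 members each. For the difference of the refed effects, 1 gene was called; pseudocount 10 gave 0, quantile normalization 2, no trend 2, and leaving out 1 library 1 to 6. With the mouse as a replicate block, 576, 283, 7881 and 1 genes and 6, 7, 6 and 0 members were called, in the order of comparisons above, and no count moved by over 1.5 times. Between CCK+ and CCK- cells, Lss was -0.031 under quantile normalization and Idi1 -0.065 in fasted libraries, and with 1 library left out Lss ranged from -0.022 to 0.221 and Idi1 from -0.093 to 0.19. In the difference of the refed effects, Lss was 0.00 at pseudocount 10, 0.145 with equal sums and 0.226 under quantile normalization, where Hmgcs1 was 0.077. With 1 library left out, these differences ranged from -0.265 to 0.22 for Lss, -0.297 to 0.227 for Fdft1, -0.495 to 0.041 for Hmgcs1 and -0.057 to 0.51 for Idi1. The refed effect of Srebf1 ranged, with 1 library left out, from -0.015 to 0.264 in CCK+ cells and from -0.081 to 0.599 in CCK- cells, and under the other settings from 0.165 to 0.392 and from 0.246 to 0.338. The cause of these changes was not tested. Depth limits Mvd and Scd2 in fasted CCK- cells, with about 6 and 7 reads in their lowest libraries.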
